A study of Mus musculus with 25 samples.

Results

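Hair follicle stem cells (HFSC) and epidermal stem cells (EpdSC) of unwounded mouse skin were compared in 8 RNA libraries, 4 of each population, out of 25 samples in the series, of which 21 are RNA libraries. The 8 were chosen by their titles and fall into 2 sets, called BK and CL after the codes that open the titles, with 2 HFSC and 2 EpdSC libraries in each set. The set was a block in the test, so that each population was compared with the other within its own set. A further pair, 1 HFSC and 1 EpdSC library of another code, DS, carries the word Tbr in its titles. What Tbr stands for is not stated, the pair has the same sort labels, and it was kept out of every test and used only for a held-out description.

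Per the labels, all 10 libraries came from adult skin of female B6 mice at postnatal day 60. HFSC were sorted as lineage-negative cells with a high level of integrin alpha 6 that carried CD34 and lacked Sca1, and EpdSC as lineage-negative cells with a high level of integrin alpha 6 that lacked CD34 and carried Sca1. The levels of Cd34, of Ly6a, which encodes Sca1, and of Itga6 are therefore set in part by the gates and do not count as findings. The protocol text, which is shared by all RNA samples, also speaks of a wound biopsy, while the titles of these 10 libraries name no wound. Nothing says whether libraries came from separate mice, pooled mice or separate sorts, so the p-values below reflect how much these libraries varied among themselves, and that variation may be technical. The meaning of the codes BK and CL is not stated, and within a set the HFSC and EpdSC libraries share whatever the code stands for.

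HFSC rest in the bulge, the lower end of the permanent part of the hair follicle, and start a new hair when Wnt signals outweigh the bone morphogenetic proteins (BMP) that hold them at rest. EpdSC line the basement membrane between follicles and renew the barrier of the skin surface, dividing more evenly over time. The transcription factors SOX9, LHX2, TCF7L1 and NFATC1 are known for keeping bulge cells in their state, and KLF5, GATA3 and AP-2 factors are known from the epidermis.

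Library totals ran from 15009407 to 36425082 counts in the 8 libraries, and the Tbr pair had 14216472 counts in HFSC and 24113054 in EpdSC. Levels are TMM-scaled CPM, counts scaled to a common library size, and are not divided by gene length, so they are compared between libraries and not between genes. Levels of single libraries are given in the order BK 1, BK 2, CL A, CL B. In a principal component analysis, the first component, with 62.1% of the variance, placed the HFSC libraries of BK at -89.1 and -85.4 and those of CL at -34.1 and -25.6, against 43.2 to 65.8 for the 4 EpdSC libraries. EpdSC BK 1 stood apart on the second component, at 71.2, with the other 7 libraries between -51.7 and 28.7. It also had the highest Krt6a, a keratin induced by wounding and stress, at 1738 CPM, against 146, 3.83 and 5.06 CPM in the other EpdSC libraries. HFSC libraries held 116 to 1011 CPM of Krt6a.

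The defining markers followed the labels. Lhx2, a LIM-homeodomain factor of the bulge, had 532, 372, 201 and 199 CPM in HFSC, against 3.28, 8.20, 1.63 and 2.56 CPM in EpdSC. Sox9, a factor of the outer root sheath and bulge, had 290, 240, 172 and 190 CPM in HFSC, against 22.8, 17.0, 20.2 and 28.1 CPM in EpdSC. Every HFSC library lay above every EpdSC library for both genes, and the log2 differences, HFSC minus EpdSC, were 6.44 ± 0.36 (SE, n = 4 each, edgeR quasi-likelihood test, adjusted p = 1.29e-05) and 3.32 ± 0.24 (adjusted p = 3.6e-05). Lgr5, a receptor for R-spondins that marks follicle stem cells, had 359, 314, 168 and 94.9 CPM in HFSC, against 1.38, 5.82, 1.06 and 1.11 CPM in EpdSC. The difference was 6.73 ± 0.48 (adjusted p = 3.14e-05), with no overlap between the populations. Klf5, a zinc-finger factor of basal epidermis, had 14.9, 25.9, 46.8 and 80.7 CPM in HFSC, against 164, 196, 199 and 172 CPM in EpdSC, a log2 difference of -2.34 ± 0.38 (adjusted p = 0.00249). For the gated genes, Cd34 ranged from 484 to 3268 CPM in HFSC and from 4.71 to 18.7 CPM in EpdSC, and Ly6a from 13.5 to 68.7 CPM in HFSC and from 214 to 817 CPM in EpdSC. In HFSC, Cd34, Lhx2, Sox9 and Lgr5 were lower in both CL libraries than in both BK libraries, and Klf5 was higher. On the mouse build GRCm38, the RefSeq table places Cd34 at chr1:194938821-194961292, Lhx2 at chr2:38339271-38369737, Sox9 at chr11:112782210-112787757, Lgr5 at chr10:115450314-115587780, Ly6a at chr15:74994877-74998031 and Klf5 at chr14:99298691-99313412.

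**Figure D1:**
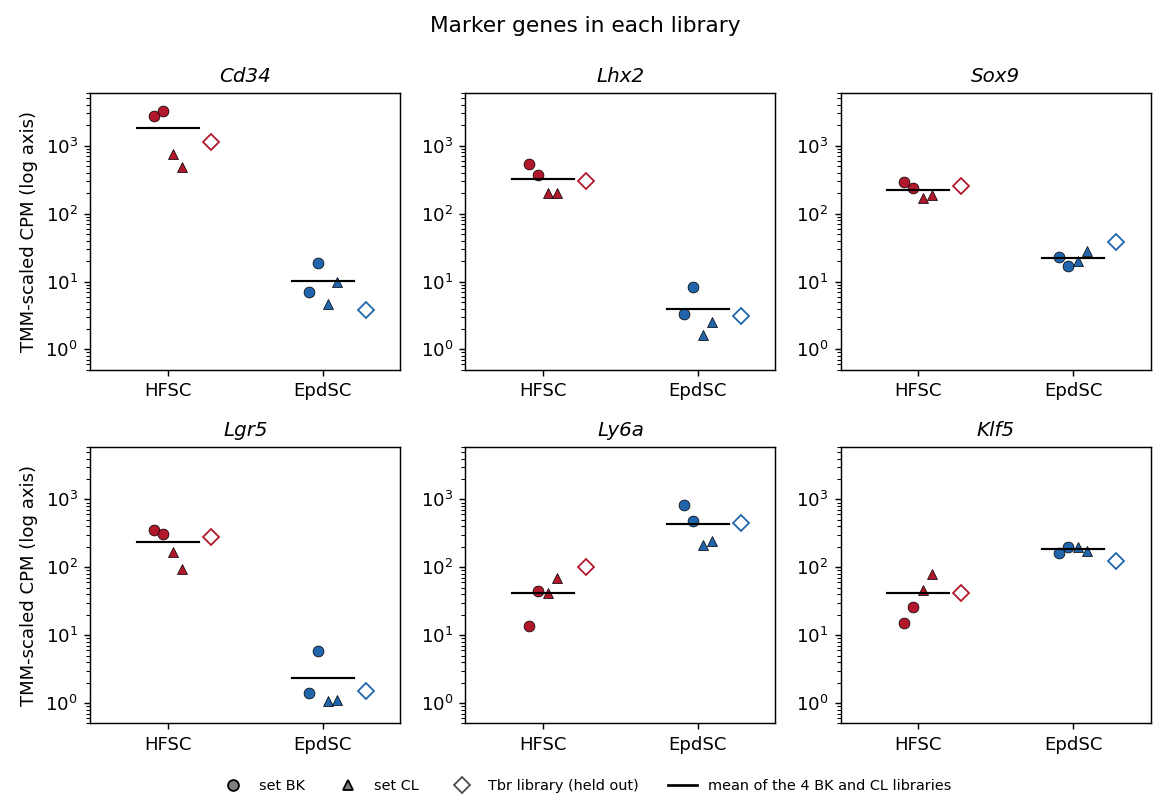
TMM-scaled CPM (log axis) of 6 marker genes in each HFSC library (left in each panel) and EpdSC library (right), with circles for the set BK, triangles for CL, open diamonds for the held-out Tbr pair and a bar for the mean of the 4 BK and CL libraries. Lhx2 lies between 199 and 532 CPM in HFSC, against 1.63 and 8.20 CPM in EpdSC, and no marker overlaps between the populations.

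Of 13076 genes tested, 3095 were called at an adjusted p under 0.05, which is 23.7% of the genes. Of these, 1797 were higher in HFSC (13.7%) and 1298 lower (9.93%). The counts per gene list below are to be read beside these shares of all tested genes. Because these are bulk samples of sorted cells, fewer cells of a type and less RNA per cell cannot be told apart. All 3095 called genes had the same direction in BK and in CL, and 2445 of them had no overlap between the 4 HFSC and the 4 EpdSC libraries, whereas 23.4% of all tested genes had no overlap (13.9% with HFSC above and 9.50% with HFSC below). Since the genes were called in these same libraries, both counts follow in part from the selection and do not replicate the calls. Taken within each set, 1122 of the 3095 were called in both, 1396 in BK only, 157 in CL only and 420 in neither alone. Within BK 27.9% of the genes were called (13.3% higher and 14.6% lower) and within CL 10.9% (8.10% higher and 2.78% lower). These within-set counts come from a fit of all 8 libraries with a shared spread. Fitted on its own 4 libraries, BK gave 2225 called genes and CL 2419, so the order of the sets depends on the fit. The count for both sets was 2035 without HFSC BK 1 and 3552 without EpdSC BK 1, the lowest and highest on leaving out 1 library.

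Open chromatin was measured by ATAC-seq in 1 pooled sample of each population, from mice of a mixed CD1 and B6 strain at postnatal day 50, younger than those of the RNA libraries, and served here to show the letters of promoters that lay in a peak of 1 population alone. The authors' peak lists held 55435 peaks for HFSC, called from 26825550 fragments, and 25742 peaks for EpdSC, called from 13963471 fragments. Since the HFSC sample was deeper and neither has replicates, a peak present in the HFSC list alone cannot be told apart from a difference in depth, and no test was made. Of the 10274 tested genes with a promoter window in the RefSeq table (250 bases before the start to 50 after it), the window met a peak of the HFSC list alone in 33.7% of the 1356 genes higher in HFSC, in 20.8% of the 999 lower genes and in 20.8% of the 7919 genes not called. The window met a peak of the EpdSC list alone in 0.2% of the higher genes, in 2.8% of the lower genes and in 0.5% of those not called. The 28 lower genes with such a peak include Adam8, Wnt16 and Mmp3, whose levels are given below.

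Windows of 4 genes are printed, 5′ to 3′ on the strand of the gene, because each lies in a peak of 1 list and belongs to a gene with a large difference in level. The Cd34 window (chr1:194938571-194938870, plus strand) met a peak with a pileup of 56 fragments and the Shisa2 window (chr14:59625031-59625330, plus strand) a peak with a pileup of 112 fragments, both in the HFSC list alone. The Adam8 window (chr7:139992513-139992812, minus strand) met a peak with a pileup of 25 fragments and the Mmp3 window (chr9:7445572-7445871, plus strand) a peak with a pileup of 60 fragments, both in the EpdSC list alone. Pileups are the authors' own values. Capitals mark matches, on either strand, to 5 motifs. SOX factors bind the core ACAAAG and LIM-homeodomain factors the core TAATTA. KLF factors bind the motif GGGCGTG, and the GC box is GGGCGGG, bound by the SP family. The motif of AP-1 is TGANTCA, the one with a match in these windows.
Cd34: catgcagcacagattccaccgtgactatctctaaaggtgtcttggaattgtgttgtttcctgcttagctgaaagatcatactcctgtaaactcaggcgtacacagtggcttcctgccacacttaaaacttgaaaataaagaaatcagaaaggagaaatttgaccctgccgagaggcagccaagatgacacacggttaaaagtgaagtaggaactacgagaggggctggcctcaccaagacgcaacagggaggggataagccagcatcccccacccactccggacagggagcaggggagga
Shisa2: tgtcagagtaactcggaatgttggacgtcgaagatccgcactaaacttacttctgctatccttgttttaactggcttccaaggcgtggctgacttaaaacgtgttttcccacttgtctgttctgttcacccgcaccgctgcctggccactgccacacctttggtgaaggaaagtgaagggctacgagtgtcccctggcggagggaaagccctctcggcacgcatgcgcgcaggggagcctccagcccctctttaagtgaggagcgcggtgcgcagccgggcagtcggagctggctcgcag
Adam8: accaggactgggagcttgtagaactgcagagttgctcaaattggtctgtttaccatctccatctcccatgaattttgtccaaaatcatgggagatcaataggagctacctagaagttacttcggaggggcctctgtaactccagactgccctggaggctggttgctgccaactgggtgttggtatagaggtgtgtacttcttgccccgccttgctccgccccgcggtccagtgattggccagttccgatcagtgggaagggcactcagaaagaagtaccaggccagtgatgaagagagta
Mmp3: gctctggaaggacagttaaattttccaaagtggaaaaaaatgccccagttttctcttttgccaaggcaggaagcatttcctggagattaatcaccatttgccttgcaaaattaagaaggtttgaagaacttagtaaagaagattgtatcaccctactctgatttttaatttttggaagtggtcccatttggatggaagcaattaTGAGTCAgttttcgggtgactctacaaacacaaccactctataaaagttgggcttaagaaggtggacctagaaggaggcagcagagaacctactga
The Mmp3 window held 1 match to TGANTCA, and the other 3 windows held none of the 5 motifs. Over all 10274 windows, the shares with a match were 16.3% for ACAAAG, 3.1% for TAATTA, 17.7% for GGGCGTG, 6.4% for TGANTCA and 51.7% for GGGCGGG. Windows of genes higher in HFSC held ACAAAG in 17.4% and TGANTCA in 6.3% of cases, those of lower genes in 17.0% and 8.6%, and those of genes not called in 16.0% and 6.2%. The motifs GGGCGTG and GGGCGGG share their opening letters. A match is a description of the letters and no site was tested.

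The 15 largest positive differences are given for well-measured genes, with a mean of at least 10 CPM and every HFSC library above every EpdSC library. Wif1, a secreted inhibitor of Wnt ligands, had 119, 74.8, 25.7 and 39.2 CPM in HFSC, against 0.482, 0.298, 0 and 0.0693 CPM in EpdSC, a log2 difference of 8.27 ± 0.45 (adjusted p = 1.2e-05). Gfra2, the receptor for neurturin, had 55.4, 47.1, 16.9 and 21.2 CPM in HFSC, against 0.0964, 0.348, 0.044 and 0 CPM in EpdSC (log2 difference 8.22 ± 0.44). Fstl1, a follistatin-like glycoprotein, had 106, 66.8, 25.9 and 16.1 CPM in HFSC, against 0.321, 0.348, 0.088 and 0.208 CPM in EpdSC (log2 difference 7.76 ± 0.36, adjusted p = 8.18e-06). For all 3 genes the HFSC libraries of BK stood above those of CL, and every EpdSC library stayed under 0.5 CPM. Shisa2, which holds back the maturation of Wnt and FGF receptors, had 636, 410, 145 and 141 CPM in HFSC, against 1.16, 4.23, 0.924 and 1.87 CPM in EpdSC, a log2 difference of 7.21 ± 0.51 (adjusted p = 3e-05). Its window, printed above, was in a peak of the HFSC list alone.

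The other genes of that group, with log2 differences from 7.07 to 7.81, were Wfdc3, Mme (the peptidase neprilysin), Aspn (asporin, a small proteoglycan), Cck (cholecystokinin), Fzd9 (a frizzled receptor), Ppp1r3c (which brings a phosphatase to glycogen), Cd34, Grik1 (a kainate receptor subunit), Vit (vitrin), Myoc (myocilin) and Col8a2 (collagen VIII). All 15 lay above 0 in the held-out pair too, with log2 ratios from 3.37 for Fzd9 to 8.04 for Cd34. The gates set Cd34 in part in all these libraries.

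The 15 largest negative differences were smaller in size. Bmp3, a BMP that counters its relatives, had 0.835, 1.22, 0.356 and 0.868 CPM in HFSC, against 35.2, 57.3, 17.6 and 20.7 CPM in EpdSC, a log2 difference of -5.26 ± 0.35 (adjusted p = 2.35e-05). Adamts14, a protease that trims procollagen, had 5.04, 9.30, 7.25 and 16.0 CPM in HFSC, against 151, 282, 340 and 293 CPM in EpdSC (log2 difference -4.84 ± 0.36). Sox6, a SOX factor without an activation domain, had 3.04, 6.01, 3.85 and 9.29 CPM in HFSC, against 65.9, 111, 162 and 118 CPM in EpdSC (log2 difference -4.36 ± 0.37, adjusted p = 7.42e-05). The lowest EpdSC library was well above the highest HFSC library for each of these 3 genes. Irf4, an interferon regulatory factor known from lymphocytes and pigment cells, had 0.985, 0.549, 1.26 and 1.56 CPM in HFSC, against 13.2, 14.4, 28.9 and 30.3 CPM in EpdSC (log2 difference -4.28 ± 0.26, adjusted p = 1.74e-05). Adam8, a membrane-bound metalloproteinase, had 1.85, 8.54, 2.75 and 4.38 CPM in HFSC, against 106, 76.6, 75.3 and 56.1 CPM in EpdSC (log2 difference -4.17 ± 0.45). The others, with log2 differences from -4.68 to -4.11, were Crispld2, Il20ra, Cdh4 (R-cadherin), Cyp2w1 (a cytochrome P450), Slc4a8 (a bicarbonate transporter), Gna14 (a G protein subunit of the Gq class), Pls1 (a plastin), Il1r2 (the decoy receptor of interleukin-1), Lama1 (a laminin chain) and Wipf3. In the held-out pair all 15 were below 0, from -3.13 for Adamts14 to -1.86 for Lama1.

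Among 19 tested transcription factors listed for HFSC, 16 were higher in HFSC and 1 was lower (2 without HFSC CL B), with a median log2 difference of 2.49, against -0.03 over all 13076 genes. The list was drawn up with HFSC in mind and with earlier results of these data known, so its direction is a description. Tbx1, a T-box factor of the bulge, had 306, 262, 119 and 123 CPM in HFSC, against 1.86, 3.88, 0.748 and 2.63 CPM in EpdSC (log2 difference 6.45 ± 0.42, adjusted p = 2.24e-05). Foxc1, a forkhead factor that keeps bulge cells from cycling, had 95.9, 86.7, 129 and 136 CPM in HFSC, against 10.6, 8.70, 5.76 and 11.8 CPM in EpdSC (log2 difference 3.58 ± 0.27). Nfatc1, a calcium-regulated factor of the bulge, had 300, 268, 355 and 374 CPM in HFSC, against 60.6, 62.4, 63.6 and 74.1 CPM in EpdSC (log2 difference 2.31 ± 0.15, adjusted p = 2.31e-05). Unlike Lhx2 and Sox9, Foxc1 and Nfatc1 were not lower in the CL libraries of HFSC than in the BK libraries. Tcf7l1, a repressor of Wnt targets, had 33.1, 22.5, 11.5 and 17.1 CPM in HFSC, against 1.03, 1.14, 2.33 and 3.33 CPM in EpdSC (log2 difference 3.48 ± 0.51, adjusted p = 0.0014). Runx1, Vdr (the vitamin D receptor), Sox13 and Foxp1 were also higher, by 2.49, 1.85, 3.60 and 1.54 on the log2 scale. Meis2, a homeobox factor, went the other way, with 1.73, 2.47, 6.02 and 6.38 CPM in HFSC, against 10.3, 18.4, 15.9 and 17.6 CPM in EpdSC (log2 difference -2.09 ± 0.35, adjusted p = 0.00293). Nfix, at a mean of 548 ± 88.9 CPM in HFSC and 641 ± 118 CPM in EpdSC (SD, n = 4 each), was not called (adjusted p = 0.463).

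Of 20 listed surface and secreted markers of HFSC, 15 were higher and 0 lower, with 0 lower also at an unadjusted p under 0.05 and with DESeq2. The median log2 difference of the 20 was 4.51. The 15 include Cd34, which the gates set in part. Beside Lgr5 and Cd34 these included Cd200, a surface glycoprotein that restrains immune cells, with 307, 233, 167 and 119 CPM in HFSC, against 7.13, 6.12, 3.30 and 6.24 CPM in EpdSC (log2 difference 5.14 ± 0.28, adjusted p = 1.11e-05). Postn (periostin), a matrix protein, had 6040, 4930, 3830 and 2436 CPM in HFSC, against 215, 161, 283 and 603 CPM in EpdSC (log2 difference 3.84 ± 0.51). S100a4, a calcium-binding protein, had 2064, 2097, 758 and 381 CPM in HFSC, against 34.4, 26.2, 14.9 and 18.6 CPM in EpdSC (log2 difference 5.60 ± 0.36). In each case the populations were far from overlapping and the HFSC libraries of CL were the lower pair. Krt15, a keratin often used to mark the bulge, did not separate the sorted populations, with 24820, 27530, 11120 and 11780 CPM in HFSC, against 10130, 9184, 13160 and 12010 CPM in EpdSC (log2 difference 0.65 ± 0.36, adjusted p = 0.222). In BK both HFSC libraries exceeded both EpdSC libraries for Krt15, and in CL both were below them.

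The lists for EpdSC were mixed. Of 20 transcription factors listed for EpdSC or interfollicular epidermis, 7 were lower in HFSC and 6 higher, with a median log2 difference of -0.54. The count of lower genes fell to 4 without HFSC BK 1. Ets1, an ETS factor, had 7.01, 5.64, 5.86 and 9.81 CPM in HFSC, against 38.8, 46.2, 34.0 and 34.9 CPM in EpdSC (log2 difference -2.44 ± 0.24, adjusted p = 0.000147). Gata3, a zinc-finger factor of barrier formation, had 90.4, 93.0, 133 and 188 CPM in HFSC, against 255, 471, 499 and 426 CPM in EpdSC (log2 difference -1.76 ± 0.24). Both were lower in every HFSC library than in any EpdSC library. In the other direction, Irx4, an Iroquois homeobox factor, had 78.4, 53.1, 108 and 126 CPM in HFSC, against 16.3, 6.46, 10.03 and 20.2 CPM in EpdSC (log2 difference 2.74 ± 0.35), and Barx2, Dlx3 and Prdm1 were higher by 2.15, 3.22 and 3.57. Trp63, which encodes p63, the master factor of stratified epithelia, had a mean of 874 ± 91.4 CPM in HFSC and 1189 ± 229 CPM in EpdSC (SD, n = 4 each) and was not called (adjusted p = 0.157).

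Of 18 surface and secreted markers listed for EpdSC, 9 were lower in HFSC and 3 higher. The list holds Ly6a, which the gates set in part. Besides Ly6a, its neighbour in the same gene family Ly6c1 was lower in HFSC (log2 difference -3.76 ± 0.63), and since these genes resemble each other in sequence their counts may share reads. Skint7, of a family that selects skin gamma-delta T cells, had 2.24, 5.95, 9.10 and 11.8 CPM in HFSC, against 16.0, 94.4, 137 and 154 CPM in EpdSC (log2 difference -3.77 ± 0.54). EpdSC BK 1 was the lowest of the EpdSC libraries for Skint7 and still above every HFSC library. Skint3, Skint5 and Skint10, on the same list, did not follow Skint7, and for each the populations overlapped. Skint3 had 14.7 to 178 CPM in HFSC, against 13.2 to 47.3 CPM in EpdSC. Skint5 had 15.1 to 49.9 CPM in HFSC, against 7.33 to 31.6 CPM in EpdSC. Skint10 had 11.9 to 44.8 CPM in HFSC, against 6.71 to 16.8 CPM in EpdSC. The same caution on shared reads applies to this family. Ptn (pleiotrophin), a heparin-binding growth factor that had been listed for EpdSC, was higher in HFSC in every library, at 586 to 1128 CPM, against 45.6 to 74.3 CPM in EpdSC (log2 difference 3.83 ± 0.26, adjusted p = 2.41e-05).

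BMP signals hold bulge cells at rest, through receptors that phosphorylate SMAD1 and SMAD5 and so raise ID genes, and secreted inhibitors such as noggin and gremlin take the ligands away. Of 25 tested genes of this pathway 14 were higher in HFSC and 4 lower, with a median log2 difference of 1.49. Among the ligands, Bmp4 had 2.42, 4.33, 3.50 and 5.17 CPM in HFSC, against 49.5, 76.3, 63.8 and 73.4 CPM in EpdSC (log2 difference -4.10 ± 0.27, adjusted p = 2.31e-05). Bmp6 had 8.41, 3.08, 2.95 and 4.08 CPM in HFSC, against 0.129, 0.0994, 0.044 and 0 CPM in EpdSC (log2 difference 5.95 ± 0.59), and Gdf10 had 26.9, 15.4, 5.54 and 2.82 CPM in HFSC, against 0.193, 0.0497, 0.088 and 0.139 CPM in EpdSC (log2 difference 6.52 ± 0.60). Bmp4 and Bmp3 were thus lower and Bmp6 and Gdf10 higher in every HFSC library. Bmp2 was lower as well (log2 difference -1.47 ± 0.32, adjusted p = 0.0104), with overlap between the populations, and Bmp7 was not called.

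The inhibitors of the ligands were higher in HFSC. Grem1 (gremlin) had 284, 265, 185 and 96.5 CPM in HFSC, against 0.546, 4.08, 1.01 and 1.11 CPM in EpdSC (log2 difference 6.99 ± 0.59). Nog (noggin) had 70.1, 58.2, 26.7 and 21.3 CPM in HFSC, against 0.996, 1.84, 0.924 and 1.32 CPM in EpdSC (log2 difference 5.01 ± 0.33, adjusted p = 2.35e-05). Fst (follistatin), which binds activins and some BMPs, had 349, 293, 660 and 527 CPM in HFSC, against 15.9, 21.7, 58.9 and 123 CPM in EpdSC (log2 difference 3.40 ± 0.37). Grem1 and Nog were higher in BK than in CL within HFSC, and Fst was the reverse. The type I receptor Bmpr1b was at 0.0895 to 0.291 CPM in HFSC and 2.69 to 6.52 CPM in EpdSC (log2 difference -4.50 ± 0.47), while Bmpr1a, the main type I receptor of the follicle, had means of 200.1 ± 28.6 CPM in HFSC and 195 ± 37.6 CPM in EpdSC (SD, n = 4 each). Among the targets, Id2 had 376, 302, 142 and 119 CPM in HFSC, against 11.99, 12.8, 10.4 and 14.6 CPM in EpdSC (log2 difference 4.09 ± 0.32, adjusted p = 5.37e-05). Id1 was higher as well, at 172 to 187 CPM in HFSC and 84.6 to 132 CPM in EpdSC (log2 difference 0.77 ± 0.16, adjusted p = 0.00779), and Id3 was not called (log2 difference 1.23, adjusted p = 0.0634). The feedback inhibitors Smad6 and Smad7, which block the receptors, were higher by 3.89 ± 0.39 and 1.49 ± 0.19.

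**Figure D2:**
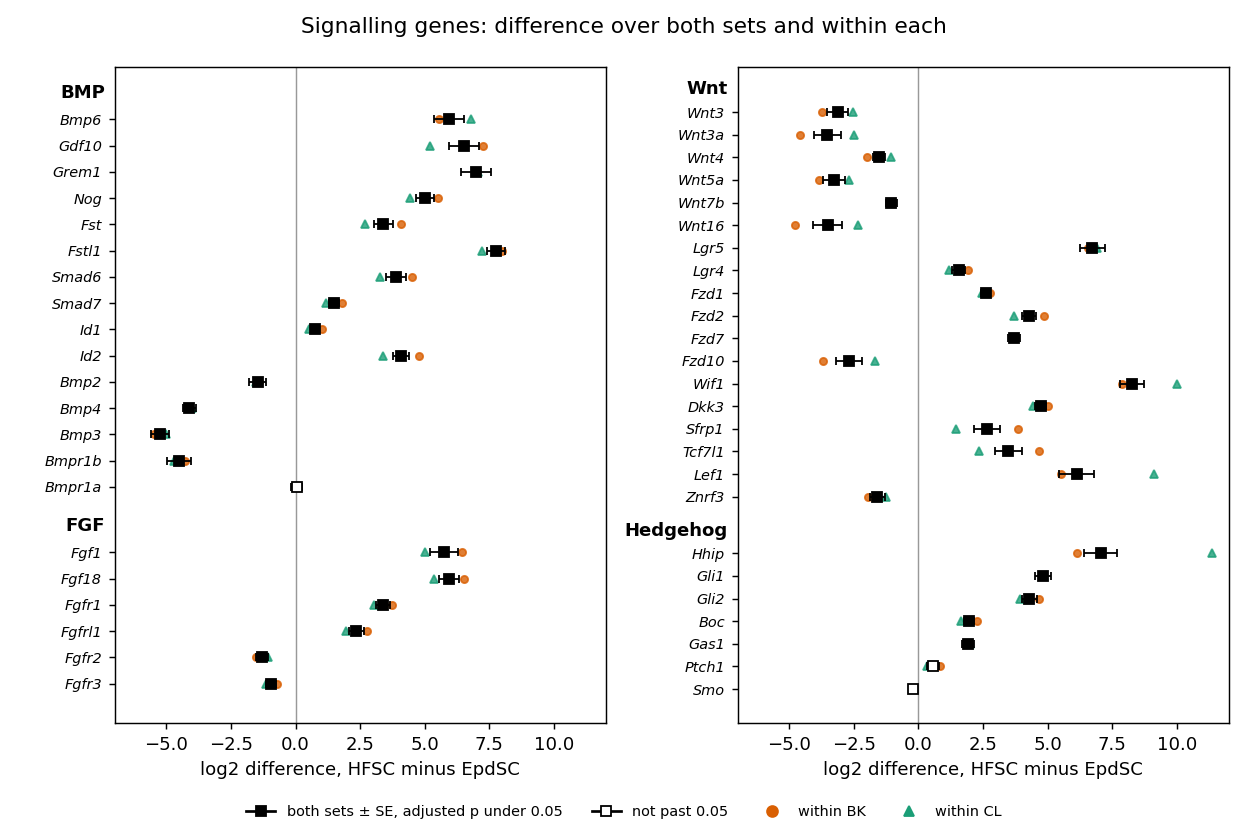
Log2 difference, HFSC minus EpdSC, of genes of the BMP and FGF pathways (left) and of the Wnt and Hedgehog pathways (right). Squares with bars give the estimate over both sets ± SE (filled where the adjusted p was under 0.05), circles the estimate within BK and triangles that within CL. All 6 Wnt ligands shown lie left of 0, and Lgr5, Lgr4, Fzd1, Fzd2 and Fzd7 right of it. The within-CL values of Hhip and of Lef1 rest on EpdSC libraries with 0 counts.

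Wnt ligands bind frizzled receptors and keep beta-catenin from being destroyed, R-spondin receptors of the LGR family amplify the signal, and secreted proteins of the WIF, DKK and SFRP families oppose it. Of 14 tested ligands 9 were lower in HFSC and 0 higher (1 higher at an unadjusted p under 0.05, 1 with DESeq2 and 1 without EpdSC CL A), with a median log2 difference of -1.67. Wnt3 had 11.9, 26.7, 30.7 and 68.0 CPM in HFSC, against 282, 224, 317 and 258 CPM in EpdSC (log2 difference -3.13 ± 0.40, adjusted p = 0.000678). Wnt16, whose window met a peak of the EpdSC list alone with a pileup of 34, had 0.895, 2.20, 7.48 and 9.25 CPM in HFSC, against 31.1, 53.5, 42.8 and 42.4 CPM in EpdSC (log2 difference -3.51 ± 0.56). Wnt4 had 91.2, 102, 148 and 200 CPM in HFSC, against 416, 352, 374 and 350 CPM in EpdSC (log2 difference -1.52 ± 0.23). For these 3 ligands the HFSC libraries of CL lay closer to EpdSC than those of BK did. Wnt3a, Wnt5a and Wnt7b were lower too, with log2 differences of -3.52, -3.27 and -1.05. The lowest count of lower ligands on leaving out 1 library was 7, without HFSC BK 1.

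The receptors went the other way: 9 of 17 were higher in HFSC and 1 lower. Fzd2 had 486, 450, 142 and 154 CPM in HFSC, against 18.7, 13.7, 10.5 and 12.2 CPM in EpdSC (log2 difference 4.29 ± 0.28). Fzd7 had 487, 360, 413 and 331 CPM in HFSC, against 36.4, 28.8, 22.0 and 34.5 CPM in EpdSC (log2 difference 3.71 ± 0.22, adjusted p = 1.74e-05). Fzd1 was higher by 2.61 ± 0.17 and Lgr4, the relative of Lgr5, by 1.56 ± 0.25, with no overlap. Fzd10 was the exception, at 8.47, 16.8, 18.7 and 51.4 CPM in HFSC, against 192, 135, 122 and 104 CPM in EpdSC (log2 difference -2.69 ± 0.52, adjusted p = 0.00582). The co-receptors Lrp5 and Lrp6 were not called. Of 15 tested antagonists and targets 8 were higher and 3 lower, and the 3 became 1 without HFSC BK 1. Dkk3, a divergent DKK protein, had 1153, 1126, 293 and 253 CPM in HFSC, against 38.5, 32.4, 10.5 and 14.8 CPM in EpdSC (log2 difference 4.73 ± 0.23, adjusted p = 9.11e-06). In both populations Dkk3 was lower in CL than in BK, and the difference within each set was close, at 5.01 in BK and 4.44 in CL. Lef1, a factor that carries Wnt output in the hair germ, was low in HFSC, at 1.85 to 6.09 CPM, and lower still in EpdSC, at 0 to 0.129 CPM (log2 difference 6.12 ± 0.68). The ubiquitin ligase Znrf3, which Wnt signals induce and which removes frizzled receptors, had 25.2, 18.5, 42.5 and 40.9 CPM in HFSC, against 50.1, 120, 102 and 94.5 CPM in EpdSC (log2 difference -1.60 ± 0.29, adjusted p = 0.00432).

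Hedgehog signals from nerves and from the growing hair reach part of the bulge, and Gli1 and Hhip are known as their direct targets. Of 13 tested genes 8 were higher in HFSC and 0 lower, also 0 at an unadjusted p under 0.05 and with DESeq2, and 5 were higher without HFSC BK 1. Gli1 had 95.8, 60.3, 61.1 and 66.7 CPM in HFSC, against 1.70, 3.93, 1.89 and 2.56 CPM in EpdSC (log2 difference 4.83 ± 0.31, adjusted p = 2.16e-05). Hhip, which binds and removes the ligand, had 13.6, 11.6, 15.9 and 9.03 CPM in HFSC, against 0.193, 0.149, 0 and 0 CPM in EpdSC (log2 difference 7.05 ± 0.64). Gli2 was higher by 4.29 ± 0.28, and the co-receptors Boc and Gas1 by 1.95 ± 0.19 and 1.91 ± 0.23. The HFSC levels of Gli1 and Boc in CL lay within the range seen in BK. Ptch1, the receptor and also a target, was not called, at a mean of 30.2 ± 8.4 CPM in HFSC and 20.7 ± 4.68 CPM in EpdSC (SD, n = 4 each, adjusted p = 0.133), and neither was Smo. Of 16 tested Notch pathway genes 3 were higher and 3 lower, not far from the 13.7% and 9.93% of all tested genes. The 3 lower became 1 without HFSC BK 1 and the 3 higher 5 without EpdSC BK 2. Dll1, a Notch ligand that marks basal epidermal cells, had 16.6, 21.4, 47.8 and 72.1 CPM in HFSC, against 118, 100.7, 142 and 126 CPM in EpdSC (log2 difference -1.84 ± 0.30, adjusted p = 0.0027).

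Fibroblast growth factors act in the resting follicle as well, where FGF18 made by the bulge is known to lengthen rest. Of 13 tested genes 6 were higher and 2 lower in HFSC. Fgf18 had 30.6, 45.3, 25.9 and 18.9 CPM in HFSC, against 0.257, 0.597, 0.484 and 0.624 CPM in EpdSC (log2 difference 5.95 ± 0.39, adjusted p = 2.35e-05). Fgf1 had 239, 232, 98.8 and 73.2 CPM in HFSC, against 1.38, 4.13, 1.41 and 4.09 CPM in EpdSC (log2 difference 5.75 ± 0.53). The receptors split, with Fgfr1 at 522, 430, 507 and 435 CPM in HFSC, against 26.6, 45.0, 45.7 and 70.4 CPM in EpdSC (log2 difference 3.38 ± 0.28). Fgfr3 had 302, 322, 178 and 285 CPM in HFSC, against 532, 503, 512 and 506 CPM in EpdSC (log2 difference -0.93 ± 0.20), and Fgfr2 had a log2 difference of -1.30 ± 0.23. Fgfr1 was thus higher in every HFSC library and Fgfr3 lower in every HFSC library. Of 15 tested genes of the EGF family 3 were lower and 1 higher, against 9.93% and 13.7% of all tested genes. Epgn (epigen), an EGF receptor ligand, had 4.57, 8.42, 26.0 and 77.5 CPM in HFSC, against 129, 254, 226 and 431 CPM in EpdSC (log2 difference -3.76 ± 0.62), and the receptor Egfr was not called.

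Collagens and other matrix genes were higher in HFSC more often than lower. Of 22 tested collagen genes 13 were higher in HFSC and 3 lower, with a median log2 difference of 1.73, and of 24 other matrix genes 17 were higher and 5 lower, with a median of 2.81. Col6a2, a chain of the collagen VI microfibrils, had 263, 280, 72.2 and 62.9 CPM in HFSC, against 1.61, 2.73, 0.528 and 1.80 CPM in EpdSC (log2 difference 6.52 ± 0.42, adjusted p = 2.16e-05). Col6a1 had 711, 676, 189 and 163 CPM in HFSC, against 52.5, 54.4, 9.11 and 7.49 CPM in EpdSC (log2 difference 4.04 ± 0.21, adjusted p = 1.11e-05). In both populations Col6a1 was lower in CL than in BK. Col4a3 and Col4a4, chains of basement membrane collagen IV, were higher by 3.95 ± 0.31 and 4.37 ± 0.60. Col7a1, the anchoring fibril collagen, had 374, 346, 512 and 455 CPM in HFSC, against 569, 758, 1023 and 949 CPM in EpdSC (log2 difference -0.96 ± 0.17, adjusted p = 0.00409). Col23a1, a transmembrane collagen, had a log2 difference of -2.97 ± 0.58. Aspn had 102.8, 86.9, 110 and 54.4 CPM in HFSC, against 0.225, 1.24, 0.132 and 0.693 CPM in EpdSC. Smoc2, a secreted calcium-binding matrix protein, went the other way, with 83.8, 71.5, 306 and 425 CPM in HFSC, against 856, 679, 800 and 794 CPM in EpdSC (log2 difference -2.21 ± 0.44).

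TGF-beta ligands are secreted in a latent form that LTBP proteins tie to the matrix, and signal through a receptor pair to SMAD2 and SMAD3. Of 20 tested genes, 8 were higher and 5 lower, the 5 falling to 3 without HFSC BK 1. The ligand Tgfb3 had 54.0, 34.9, 43.5 and 61.5 CPM in HFSC, against 8.20, 9.25, 3.56 and 5.34 CPM in EpdSC (log2 difference 2.94 ± 0.32). Ltbp2, which binds microfibrils, had 563, 645, 211 and 171 CPM in HFSC, against 2.15, 6.56, 3.52 and 7.001 CPM in EpdSC (log2 difference 6.17 ± 0.58). Ctgf, a matrix-associated target of TGF-beta and of YAP, had 2147, 2594, 688 and 996 CPM in HFSC, against 12.1, 16.4, 18.9 and 29.0 CPM in EpdSC (log2 difference 6.26 ± 0.55). The receptor Tgfbr2 was lower, with 78.0, 73.4, 73.7 and 106 CPM in HFSC, against 223, 195, 150 and 142 CPM in EpdSC (log2 difference -1.08 ± 0.21, adjusted p = 0.00584), as were Tgfbr3 and Smad3, with log2 differences of -1.74 ± 0.28 and -1.05 ± 0.21. Tgfbr1 and Smad2 were not called. Among metalloproteinases and their inhibitors 8 of 20 were higher and 3 lower. Timp2, an inhibitor, had 898, 937, 330 and 332 CPM in HFSC, against 11.7, 10.1, 12.4 and 22.4 CPM in EpdSC (log2 difference 5.32 ± 0.50). Mmp3 (stromelysin), whose window is printed above, had 0.686, 4.67, 0.486 and 1.35 CPM in HFSC, against 111, 40.9, 8.22 and 6.79 CPM in EpdSC (log2 difference -4.04 ± 0.72, adjusted p = 0.00393).

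The bulge is where sensory nerves and the arrector pili muscle attach, and genes for neural ligands and receptors were among the most unequal. Of 21 tested neurotrophin and neural genes 13 were higher in HFSC and 4 lower. Their median log2 difference was 3.65, or 2.63 with the 3 genes at 0 in every EpdSC library set to their lower bound. Those 3 were Scrg1, at 21.1, 12.8, 3.37 and 1.74 CPM in HFSC and at least 66.6-fold higher than in EpdSC, Sphkap, at least 71.1-fold higher, and Ntm, at least 4.81-fold higher, with 3 counts per library as the floor. Gfra1, the receptor for GDNF, had 385, 371, 150 and 79.5 CPM in HFSC, against 2.99, 2.49, 2.02 and 1.87 CPM in EpdSC (log2 difference 6.52 ± 0.36, adjusted p = 1.29e-05). Nrtn (neurturin), the ligand of Gfra2, had 205, 250, 76.4 and 131 CPM in HFSC, against 19.8, 7.36, 8.66 and 13.4 CPM in EpdSC (log2 difference 3.65 ± 0.38). Gdnf itself was lower, with 14.5, 11.2, 10.1 and 17.4 CPM in HFSC, against 42.9, 39.8, 64.2 and 48.1 CPM in EpdSC (log2 difference -1.86 ± 0.22). Ngfr, the low-affinity neurotrophin receptor, was lower too, with 23.6, 18.7, 8.45 and 15.2 CPM in HFSC, against 142, 130, 95.4 and 87.8 CPM in EpdSC (log2 difference -2.82 ± 0.21, adjusted p = 4.2e-05). Bdnf, a neurotrophin known to be made by follicle cells around sensory endings, had 30.3, 19.2, 14.02 and 7.21 CPM in HFSC, against 0, 0.249, 0 and 0 CPM in EpdSC.

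Axon guidance genes moved in both directions, 10 of 30 higher and 6 lower. Sema3e, a semaphorin, had 365, 259, 203 and 149 CPM in HFSC, against 2.54, 6.96, 2.24 and 2.77 CPM in EpdSC (log2 difference 6.09 ± 0.36), whereas its relative Sema3f had 36.4, 50.6, 38.5 and 97.7 CPM in HFSC, against 267, 232, 261 and 214 CPM in EpdSC (log2 difference -2.16 ± 0.31). Robo2, a receptor for SLIT proteins, was higher by 2.77 ± 0.27. Of 25 tested channel genes 9 were higher and 2 lower, 1 of them without HFSC BK 1. Kcnk2, a potassium channel opened by stretch, had 180, 188, 72.6 and 44.0 CPM in HFSC, against 1.74, 3.38, 2.11 and 1.52 CPM in EpdSC (log2 difference 5.61 ± 0.38). Trpv4, a calcium channel, had 234, 263, 85.7 and 81.9 CPM in HFSC, against 12.2, 22.3, 13.4 and 13.9 CPM in EpdSC (log2 difference 3.24 ± 0.31). Of 10 tested genes of the insulin-like growth factor axis 4 were higher and 1 lower (2 without EpdSC BK 1), the 5 all being binding proteins. Igfbp5 had 160, 133, 74.3 and 70.8 CPM in HFSC, against 0.643, 2.14, 0.748 and 0.554 CPM in EpdSC (log2 difference 6.76 ± 0.36, adjusted p = 1.11e-05), and Igfbp3 had 204, 316, 217 and 209 CPM in HFSC, against 688, 1044, 2374 and 2117 CPM in EpdSC (log2 difference -2.57 ± 0.38).

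Of 12 tested hemidesmosome genes 4 were lower and 0 higher (0 also at an unadjusted p under 0.05 and with DESeq2), 2 without HFSC BK 1, and of 14 basal keratin and adhesion genes 3 were lower, 1 without HFSC BK 1. Itga6, on the hemidesmosome list and used by both gates, had 380, 328, 511 and 594 CPM in HFSC, against 1342, 1956, 1212 and 1251 CPM in EpdSC. Itga3, the other alpha integrin that binds laminin, had a log2 difference of -1.12 ± 0.24 (adjusted p = 0.0108), and Itgb1, Itgb4 and Col17a1 were not called. Of 23 tested genes of epidermal differentiation 7 were higher and 4 lower, the 7 becoming 4 without HFSC BK 2 and 11 without HFSC BK 1. Tgm5, a transglutaminase that crosslinks barrier proteins, had 1594, 1651, 543 and 429 CPM in HFSC, against 16.0, 17.1, 4.44 and 5.68 CPM in EpdSC (log2 difference 6.61 ± 0.21, adjusted p = 2.79e-06). Calml3, a calmodulin-like protein, had 1617, 1639, 696 and 525 CPM in HFSC, against 33.5, 20.4, 9.28 and 13.2 CPM in EpdSC (log2 difference 5.84 ± 0.27). Tgm3, a relative of Tgm5, was the reverse, with 3.94, 8.05, 3.43 and 8.90 CPM in HFSC, against 112, 77.9, 64.2 and 48.5 CPM in EpdSC (log2 difference -3.59 ± 0.39). Krt1, the keratin of the first suprabasal layer, had 758, 1925, 594 and 1025 CPM in HFSC, against 4068, 3488, 4460 and 2318 CPM in EpdSC (log2 difference -1.78 ± 0.37, adjusted p = 0.00904), but its log2 ratio in the held-out pair was 0.27. Krt17, a keratin of the outer root sheath that stress also induces, was higher by 2.39 ± 0.39.

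Of 24 tested receptors and ligands of the interleukin family 12 were lower in HFSC and 2 higher, with a median log2 difference of -1.33, and 8 were lower without HFSC BK 1. Il20ra, a chain of the receptors for IL-20, IL-19 and IL-24, had 4.57, 8.91, 5.96 and 11.3 CPM in HFSC, against 105, 286, 148 and 152 CPM in EpdSC (log2 difference -4.49 ± 0.43). Il33, an alarm cytokine kept in the nucleus, had 13.3, 24.5, 72.5 and 91.7 CPM in HFSC, against 288, 346, 354 and 347 CPM in EpdSC (log2 difference -3.08 ± 0.44, adjusted p = 0.00116). Il6ra and the receptor antagonist Il1rn were lower as well, with log2 differences of -2.55 ± 0.44 and -2.20 ± 0.41. Il1r2 had 11.7, 35.9, 8.52 and 22.8 CPM in HFSC, against 372, 222, 375 and 389 CPM in EpdSC. The 2 that were higher were Il11ra1 and Il22ra1, by 2.19 ± 0.42 and 1.72 ± 0.21. Of 17 tested complement, MHC and antigen presentation genes 0 were higher (0 at an unadjusted p under 0.05 and 0 with DESeq2, but 2 without EpdSC BK 1) and 3 were lower (2 without HFSC BK 1), and B2m and H2-K1 were not called. Among all tested genes 13.7% were higher and 9.93% lower. In lipid synthesis 7 of 19 tested genes were lower and 0 higher (1 at an unadjusted p under 0.05, 0 with DESeq2 and 1 without EpdSC BK 1), but the 7 became 2 without HFSC CL A. Within BK 3 of these lipid genes were lower and within CL 7. In the held-out pair 10 of the 19 were above 0 and 9 below, with a median log2 ratio of 0.12. Hmgcs1, an early enzyme of cholesterol synthesis, was lower over both sets, with a log2 difference of -1.59 ± 0.19.

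**Figure D3:**
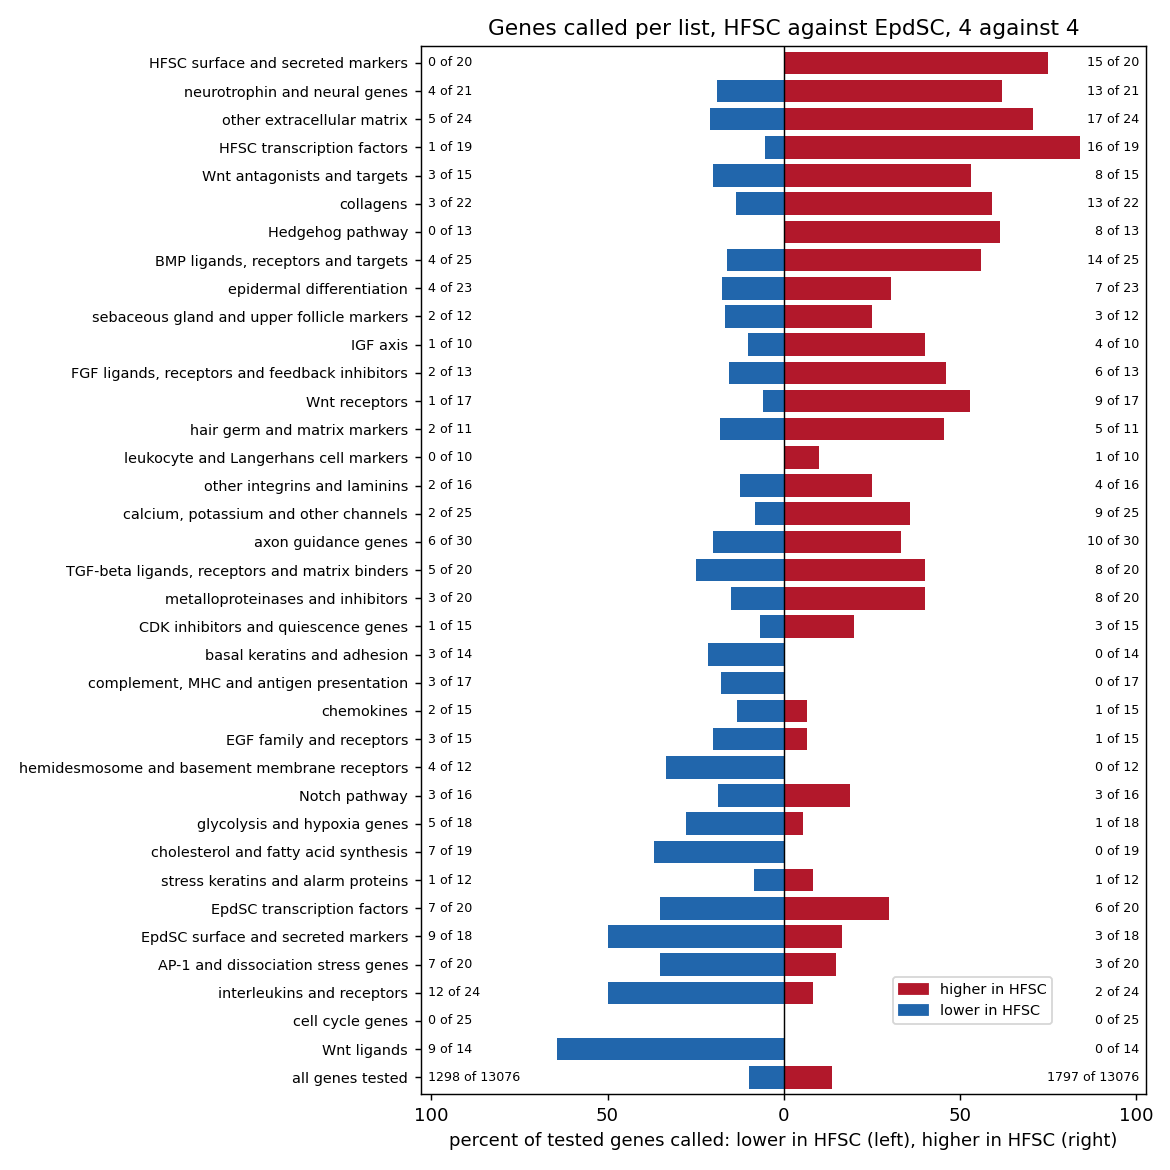
Share of tested genes called lower (left, blue) and higher (right, red) in HFSC for each list with at least 10 tested genes, ordered by median log2 difference, with all tested genes at the bottom and the counts printed at both edges. Wnt ligands have 9 of 14 lower and 0 higher, HFSC surface markers 15 of 20 higher and 0 lower, and cell cycle genes 0 in either direction.

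The size of the difference was not the same in both sets for every gene. The test of the difference itself (HFSC minus EpdSC in CL, minus that in BK) called 357 genes, 2.73% of those tested, 317 with a higher value in CL and 40 with a lower one. The count depended on single libraries. It was 0 without HFSC BK 2, HFSC CL A, HFSC CL B, EpdSC CL A or EpdSC CL B, where 1181 to 1595 genes had an unadjusted p under 0.05 with edgeR, and it was 144 without HFSC BK 1, 1428 without EpdSC BK 1 and 983 without EpdSC BK 2. The values that follow are therefore best read library by library. Of the 357 genes, 72 were also called over both sets and 237 had opposite signs in the 2 sets.

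Genes of the cell cycle showed the pattern most plainly. All 25 tested were lower in HFSC within BK, 0 were called within CL and 0 over both sets, where 5 were lower at an unadjusted p under 0.05 and 10 with DESeq2. For 17 of the 25 the difference between the sets was called, a count that ran from 0 to 25 on leaving out 1 library. Their summed level was 396 to 553 CPM in HFSC of BK and 1050 to 1110 CPM in HFSC of CL, against 2680 to 2850 CPM in EpdSC of BK and 928 to 969 CPM in EpdSC of CL. The sum was thus higher in CL than in BK for HFSC and lower in CL than in BK for EpdSC. Top2a, the topoisomerase of dividing cells, had 54.4, 20.6, 169 and 131 CPM in HFSC, against 245, 441, 113 and 130 CPM in EpdSC, a log2 difference of -3.19 within BK and 0.30 within CL (difference between sets 3.50 ± 0.66, adjusted p = 0.033). Foxm1, the factor that drives genes of mitosis, had 8.77, 4.58, 26.3 and 27.0 CPM in HFSC, against 78.8, 69.1, 23.0 and 23.6 CPM in EpdSC (difference between sets 3.66 ± 0.43, adjusted p = 0.0124). In the held-out pair the sum was 484 CPM in HFSC and 1980 CPM in EpdSC, and 24 of the 25 genes were below 0.

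The summed level of the listed markers of the upper follicle and sebaceous gland was 905 to 1000 CPM in HFSC of BK and 4360 to 5060 CPM in HFSC of CL, against 945 to 1460 CPM in the 4 EpdSC libraries, and 1360 CPM in Tbr HFSC against 1100 CPM in Tbr EpdSC. Within CL 8 of the 12 tested were higher in HFSC, within BK 0, and for 6 the difference between sets was called (0 to 10 on leaving out 1 library). The lipid genes of the list were not higher in HFSC of CL than in HFSC of BK. Krt79, a keratin of the follicle opening and the gland duct, had 124, 185, 2140 and 1820 CPM in HFSC, against 273, 90.6, 49.4 and 56.6 CPM in EpdSC (difference between sets 5.46 ± 0.70, adjusted p = 0.0124). Gata6, a factor of the duct, had 3.31, 3.78, 90.0 and 99.9 CPM in HFSC, against 6.88, 3.88, 5.06 and 7.55 CPM in EpdSC (difference between sets 4.53 ± 0.47, adjusted p = 0.0113). Lrig1, which marks stem cells of the junctional zone, had 162, 164, 809 and 984 CPM in HFSC, against 300.0, 233, 314 and 319 CPM in EpdSC (difference between sets 2.21 ± 0.33, adjusted p = 0.017). For all 3 genes both HFSC libraries of CL lay above every other library. These are the same libraries in which the bulge markers Cd34, Lhx2, Sox9 and Lgr5 were lower, and the part of cells from other follicle regions in these values was not tested. Defb6, Akr1c18, Aadac and Fam83a, the other genes with the largest such differences that were higher in HFSC of CL, had values from 4.60 to 5.64, and Cit and Chst3, which were lower in HFSC within BK and closer to EpdSC within CL, had 4.81 and 4.40.

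The list of AP-1 and dissociation stress genes holds mostly immediate early genes, which tissue dissociation is known to induce. It also holds the heat-shock genes Hspa1a and Hspa1b. Its summed level was 5920 to 7780 CPM in HFSC of BK and 31700 to 54900 CPM in HFSC of CL. In EpdSC the sum was 33900 to 41200 CPM in BK and 54800 to 57600 CPM in CL. Hspa1a, Hspa1b and Ier3 were higher in every HFSC library than in any EpdSC library. Within BK 14 of the 20 were lower in HFSC and 1 higher, within CL 1 was lower and 3 higher, and over both sets 7 were lower and 3 higher. The 7 became 2 without HFSC BK 1 and 13 without HFSC CL B, and the 3 became 1 without EpdSC CL A. Egr2, an early growth response factor, had 18.8, 19.9, 522 and 712 CPM in HFSC, against 64.0, 105, 308 and 350 CPM in EpdSC (difference between sets 3.03 ± 0.42, adjusted p = 0.0124). The part of handling in this list was not tested. In the opposite direction, the largest differences between sets were those of Trpm3, C1s1, Setbp1, Krt24, Cxcl14, Glt8d2, Sfrp1 and Cxcl12, from -3.90 to -2.36. Cxcl12, a chemokine, had 268, 248, 272 and 267 CPM in HFSC, against 10.1, 14.4, 49.4 and 81.5 CPM in EpdSC, so its HFSC levels were close in both sets and its EpdSC levels were higher in CL. Sfrp1, a secreted Wnt inhibitor, had 1536, 1103, 274 and 166 CPM in HFSC, against 88.1, 94.9, 77.2 and 81.2 CPM in EpdSC, so its HFSC levels were lower in CL and its EpdSC levels close in both sets.

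**Figure D4:**
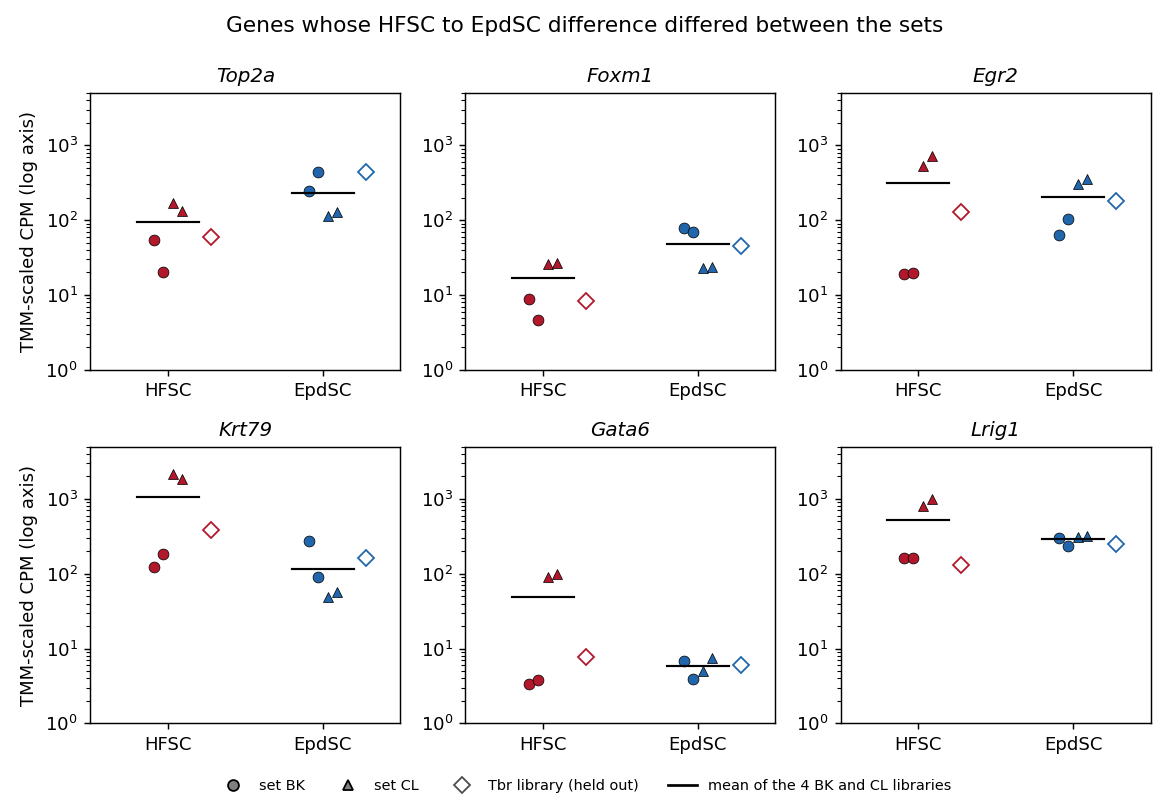
TMM-scaled CPM (log axis) of 6 genes called for the difference between sets, by population and set, with symbols as in the plot of marker genes. Gata6 is at 90.0 and 99.9 CPM in the HFSC libraries of CL and under 8 CPM in all others, and Foxm1 is at 69.1 and 78.8 CPM in the EpdSC libraries of BK, against 4.58 and 8.77 CPM in the HFSC libraries of that set.

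Markers of other cells that the gates could let through were summed over each list. The 12 hair germ and matrix markers summed to 251 to 328 CPM in HFSC and 304 to 424 CPM in EpdSC. Of the 11 of these that were tested, 5 were higher in HFSC and 2 lower. The 9 fibroblast markers summed to 49.5 to 117 CPM in HFSC and 64.3 to 361 CPM in EpdSC, with 3 of the 5 tested higher in HFSC and 1 lower. Those higher include the collagen genes Col1a2, at 34.5 to 69.8 CPM in HFSC and 0.547 to 1.04 CPM in EpdSC, and Col1a1, so their part in the collagen counts above was not tested, while Thy1, a surface marker of fibroblasts and also of other cells, was lower in HFSC (log2 difference -3.02 ± 0.53). The 8 endothelial and vessel markers summed to at most 5.30 CPM in HFSC and 11.5 CPM in EpdSC. The 9 Merkel and Schwann cell markers summed to 27.1 to 39.1 CPM in HFSC and 71 to 97 CPM in EpdSC. Of the 3 tested, 2 were higher in HFSC and 1 lower, and the part of such cells in the neural genes above was not tested. The 10 muscle and adipocyte markers summed to 6.53 to 25.2 CPM in HFSC and 3.25 to 8.03 CPM in EpdSC, with 1 of 3 tested higher and 0 lower. The 11 leukocyte and Langerhans cell markers summed to 54.8 to 161 CPM in HFSC. In EpdSC BK 2, CL A and CL B they summed to 32.2 to 48.3 CPM. The sum in EpdSC BK 1 lay above those of HFSC BK 1, BK 2 and CL A, so the populations overlapped. Most of the EpdSC BK 1 sum came from Cd74 and H2-Aa, neither of which was called. Of the 10 tested, 1 was higher in HFSC and 0 lower. The 8 melanocyte markers summed to 69.7 to 194 CPM in HFSC and 9.80 to 23.7 CPM in EpdSC, with 4 of 5 tested higher and 0 lower. Dct, a melanin enzyme that defines the lineage, had 50.6, 12.2, 3.11 and 5.69 CPM in HFSC, against 1.35, 0.398, 0.308 and 0.554 CPM in EpdSC, and Mitf, the factor of the lineage, had 96.9, 86.1, 97.8 and 56.0 CPM in HFSC, against 4.66, 13.1, 11.7 and 15.9 CPM in EpdSC. Melanocyte stem cells reside in the bulge, and their part in the HFSC values was not tested.

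In the held-out Tbr pair, which has 1 library a population and so no test, 3004 of the 3095 called genes (97.06%) had the same direction. Of the 1797 higher genes 1742 were above 0 and 1090 (60.7%) were over 2-fold higher, against 11.8% of all tested genes. Of the 1298 lower genes 1262 were below 0 and 614 (47.3%) were over 2-fold lower, against 9.22% of all tested genes. The median log2 ratio was 1.28 for the higher genes, -0.97 for the lower and -0.09 for the 9981 not called. These ratios carry a prior of 0.5 CPM, which shrinks those of low genes. Lhx2 had 300.3 CPM in Tbr HFSC and 3.10 CPM in Tbr EpdSC, Sox9 255 and 38.6 CPM, and Cd34 1120 and 3.77 CPM. Klf5 and Ly6a were lower in Tbr HFSC, with log2 ratios of -1.54 and -2.16. The Tbr pair has the same sort labels, so its Cd34 and Ly6a levels were set in part by the gates as well. Fst, at a log2 ratio of 2.11, Bmp4, at -2.35, and Wnt3a, at -2.87, had the directions given above, and Sostdc1, a BMP and Wnt inhibitor that was higher in HFSC by 1.87 ± 0.30, was at 0.36.

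**Figure D5:**
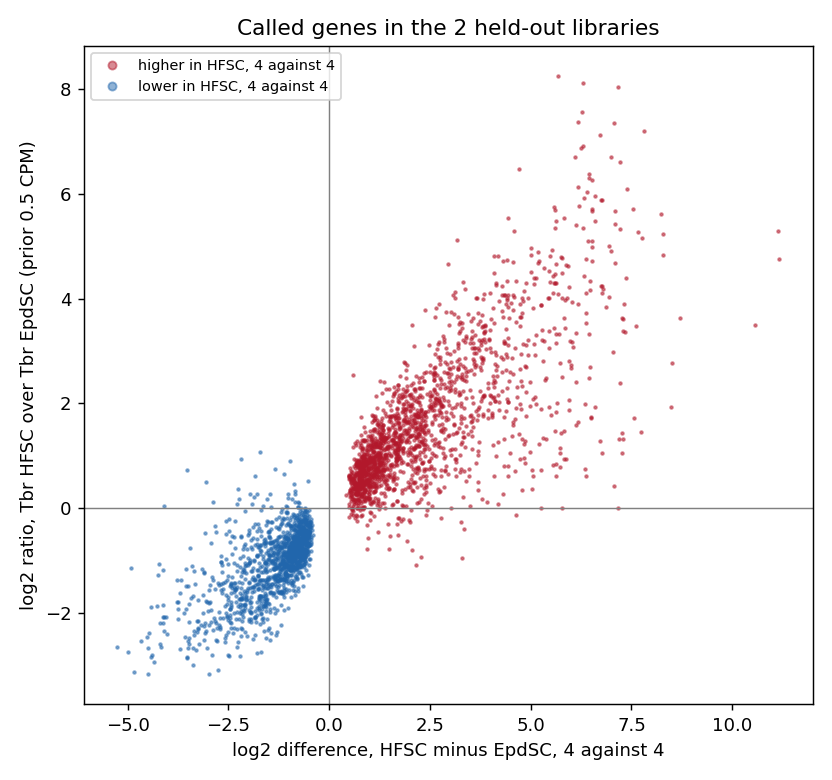
Log2 ratio of Tbr HFSC over Tbr EpdSC (vertical axis, with a prior of 0.5 CPM) against the log2 difference over the 8 libraries (horizontal axis) for the 3095 called genes, red where higher and blue where lower in HFSC. Of the red points 1742 lie above 0 and of the blue points 1262 below 0, and the 7 genes at 0 in every EpdSC library are plotted at fitted values that are not bounds.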

How the data were processed

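RNA of sorted HFSC and EpdSC was sequenced as single reads of TruSeq libraries, per the labels' protocols. The authors deposited a table of raw read counts per gene symbol, aligned with STAR to mm10 per the submitters' processing notes. How reads were assigned to genes, with which annotation and whether by strand, is not given in the sources used here, so genes with near-identical copies and overlapping genes are uncertain. ATAC-seq peaks were called by the authors with MACS2 2.1.1.20160309 on pooled fragments, per the file headers, and hold a pileup signal and a fold enrichment per peak. Peaks were used only for their positions and pileups.

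Of 24061 gene symbols, 23897 (99.3%) matched the RefSeq table, 164 were kept unmatched, and 1099 X-linked or Y-linked genes and the total line were left out. The remaining counts of 8 libraries (totals in the report) were scaled by TMM, and 13076 genes passed edgeR's expression filter. The test was edgeR's quasi-likelihood test (R 4.3.3, edgeR 4.0.16, limma 3.58.1) with the library set as a block, Benjamini-Hochberg adjustment over all tested genes and a threshold of 0.05. The difference between sets was an interaction term. DESeq2 1.42.0 and limma-voom were alternatives. Fold differences against a group at 0 used a floor of 3 counts per library, which covers counting error only. The scripts were tested on simulated data with 200 changed genes.

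The text names the 15 largest differences each way (mean of at least 10 CPM, no overlap), the 8 largest differences between sets each way, and genes of the lists. The list genes named as higher or lower were picked after their values and the alternatives were seen, with preference for those that kept their call, so their stability is no result. The members, lists and tests were chosen with earlier results of these data known. Promoter windows are from RefSeq, build GRCm38.p6, and were compared with the mm10 peaks. A few items are not reported here.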

Additional observations from a re-analysis of the deposited data

Results flagged for a closer look

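Among 184 genes picked for the text, the difference of HFSC minus EpdSC was not the same in CL and BK for 23. The test of the difference itself called these, out of 357 called over all tested genes. As values in CL minus those in BK on the log2 scale, these were 5.64 for Akr1c18, 5.46 for Krt79, 4.85 for Defb6, 4.81 for Cit, 4.66 for Fam83a, 4.60 for Aadac, 4.53 for Gata6, 4.40 for Chst3, 3.66 for Foxm1, 3.50 for Top2a, 3.03 for Egr2, 2.21 for Lrig1 and 2.18 for Smoc2. The negative ones were -2.14 for Timp2, -2.25 for Ctgf, -2.36 for Cxcl12, -2.38 for Sfrp1, -2.43 for Glt8d2, -2.50 for Cxcl14, -2.51 for Krt24, -2.73 for Setbp1, -2.95 for C1s1 and -3.90 for Trpm3. The first 8 and the 8 most negative were picked for their size, and with HFSC BK 2 or any CL library left out no gene was called for this difference with edgeR, while 1181 to 1595 had an unadjusted p under 0.05.

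In 15 of 368 groups of 4 libraries, 1 library lay far from the other 3. The cut-off is passed by about 1 in 20 groups of independent draws from 1 normal distribution. These groups mix libraries of BK and CL and the genes were picked for the text, so that rate is no expected count here. EpdSC BK 1 was such a library for Bmp2 (28.3 CPM), Il33 (288 CPM), Lrp6 (55.7 CPM), Tgfbr3 (72.2 CPM) and Trp63 (846 CPM), each time as the lowest, and for Col1a1 (1.29 CPM), as the highest. EpdSC BK 2 stood apart for Bdnf (0.249 CPM) and Lgr5 (5.82 CPM), as the highest, and for Il1r2 (222 CPM), as the lowest. HFSC CL B was the highest for Bmp2 (37.1 CPM), Cd74 (102 CPM) and Tgfbr2 (106 CPM), HFSC BK 2 for Igfbp3 (316 CPM) and Il22ra1 (68.7 CPM), and HFSC CL A for Egfr (307 CPM).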

How the results depend on the processing

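The count of 3095 called genes was 3118 with DESeq2's size factors, 4102 with DESeq2's own test, 3309 with limma-voom, 3276 with no filter on low counts, 2906 with at least 1 CPM in 4 libraries and 2245 with no library set in the model. Leaving out 1 library gave 2035 (without HFSC BK 1) to 3552 (without EpdSC BK 1). With a replicate block the count was 2180, of which 2168 were among the 3095. The deviations of same-numbered HFSC and EpdSC libraries from their group means had r = -0.27 in BK and -0.0284 in CL. With 2 libraries a group, both pairs of a set give the same r by construction. Its sign flips if the numbers of 1 group are swapped, so r cannot decide on pairing. These libraries were not treated as pairs. Whether they share a source is not stated in the labels. With the pairs crossed, an alternative chosen after seeing the data, 2663 genes were called. Fitted on the 4 libraries of a set alone, 2225 genes were called in BK, against 3648 with the spread of both sets shared, and 2419 in CL, against 1423. The 357 genes called for the difference between sets became 332 with DESeq2's size factors and 354 with the CPM filter, and 0 to 1428 on leaving out 1 library (144 without HFSC BK 1 and 983 without EpdSC BK 2). The scalings moved the median log2 difference of all genes between -0.0335 and -0.0102. The EpdSC library BK 1 and the unlike depths of the ATAC samples limit what single values show.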
